A study of Mus musculus with 18 samples.

Results

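The difference between genotypes in the response of the tissue at the border of a stroke was measured in adult male C57Bl6 mice of 8 to 10 weeks. For each gene the difference between peri-infarct and contralateral tissue in Trem2 knockout (KO) mice was taken, and the same difference in wild-type (WT) mice was subtracted from it. This interaction of genotype and region was fitted on 12 of the 18 libraries of the series, and the 6 libraries of the infarct core were left out. All mice had received a photothrombotic stroke, in which Rose Bengal, injected into the peritoneum at 50 mg/kg, is activated by light and closes the vessels under the beam. The 125 mW laser of 525 nm made a cortical lesion 3 mm across. Animals were perfused 7 days after injury and tissue was dissected by TTC staining, which colours living tissue red and not the infarct. The 4 groups, with 3 libraries each, were KO peri-infarct, KO contralateral, WT peri-infarct and WT contralateral tissue. The contralateral tissue comes from the other side of lesioned brains and is not tissue of uninjured mice, and the labels used here do not describe the Trem2 allele. The labels number the libraries without saying that a number stands for 1 animal, so each p-value reflects the spread among these samples alone, some of which may be technical.

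Trem2 is a receptor of microglia and macrophages that binds lipids and lipoproteins and signals through the adaptor Tyrobp. In mouse brain it is known for carrying microglia from their resting (homeostatic) state into the disease-associated state, in which genes of lipid handling and of the lysosome are raised. At the border of an infarct, microglia and astrocytes become reactive and proliferate, while neurons and oligodendrocytes are under stress, and bulk tissue holds RNA of all of them. In bulk tissue, fewer cells of a type and less RNA per cell cannot be told apart.

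Polyadenylated RNA was sequenced, and total expected counts per library ranged from 16993978 to 17691801. The first principal component of log2 expression (46.5% of the variance) separated all 6 peri-infarct libraries from all 6 contralateral libraries. Excitatory cortical neuron markers were abundant in every library, with summed levels of 4263 to 5840 CPM (expected counts scaled to library size by TMM) in KO peri-infarct, 5708 to 6438 in KO contralateral, 4965 to 5953 in WT peri-infarct and 5134 to 6618 in WT contralateral tissue. The libraries also differed in tissue that lies below or beside the cortex. The summed level of 14 choroid plexus genes was 1523, 366 and 4039 CPM in KO peri-infarct replicates 1 to 3 and 373, 4301 and 462 in KO contralateral tissue, against 506, 452 and 431 in WT peri-infarct and 464, 790.1 and 423 in WT contralateral tissue. KO peri-infarct replicate 3 and KO contralateral replicate 2 therefore stand apart, and results that rest on them are also given without them. The summed level of 10 striatal projection neuron genes was 786, 933 and 917 CPM in KO peri-infarct and 1295, 620.3 and 755 in KO contralateral tissue, against 226, 1054 and 259 in WT peri-infarct and 275, 677 and 569 in WT contralateral tissue.

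Tissue at the lesion border changed widely in both genotypes, and the genotype difference in that change was not resolved for any single gene by the edgeR quasi-likelihood test. Calls were made below an adjusted p of 0.05 (Benjamini-Hochberg, over the 15075 genes tested). The response of a genotype is its log2 ratio of peri-infarct to contralateral tissue. In KO mice 3081 genes were called (20.4% of those tested), 2032 of them higher in peri-infarct tissue (13.5%) and 1049 lower (6.96%). In WT mice 2837 genes were called (18.8%), 2217 higher (14.7%) and 620 lower (4.11%), and on log2 of TPM (a length-scaled level) plus 1 the split became 2114 higher and 703 lower in KO against 1827 higher and 1541 lower in WT mice, so which genotype had more lower calls turned round. Of the genes tested 360 reached the level of the low-count filter in fewer than 3 of the 6 contralateral libraries and in 3 or more border libraries. Such genes passed through the border libraries alone, which favours a higher level there, so they lend no support to a count of genes that rose. Both responses called 2019 genes (13.4% of those tested, 65.5% of the KO calls and 71.2% of the WT calls), with 1645 higher in both (10.9%), 374 lower in both (2.48%) and 0 in opposite directions. The 1645 genes had a median response of 1.04 in KO and 1.07 in WT mice. Counts in the lists below stand beside all-gene shares of 13.5% higher and 6.96% lower in KO mice. In WT mice these shares are 14.7% and 4.11%. Leaving out 1 library at a time lowered the KO count most without KO contralateral replicate 3, to 1876, and the WT count most without WT contralateral replicate 3, to 1931, with at most 1 gene called in opposite directions. Without the 2 choroid-rich libraries 1622 genes were called in KO, 2547 in WT mice and 1244 in both.

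For the KO response minus the WT response, edgeR called 0 of 15075 genes (0%), with a smallest adjusted p of 0.999991. An unadjusted p under 0.05 was found for 517 genes (3.43%), 146 above 0 (0.968%) and 371 below 0 (2.46%). limma-voom called 0 genes (493 at an unadjusted p under 0.05) and limma on log2(TPM + 1) called 0 (587), while DESeq2 called 2 (406), Lpl and H2-T24, with adjusted p of 0.00227 and 0.0259. Values written with ± are log2 estimates with their standard error (SE), and intervals are 95% intervals. The median SE of the difference over all genes was 0.172 and its median estimate -0.034, with 41.7% of estimates above 0. On log2(TPM + 1) that median estimate was 0.079 (0.089 with a pseudocount of 0.1), a shift of over 0.1. The list medians below moved on TPM by unlike amounts. That of the respiratory chain, -0.17, reached at most -0.089 outside left-out libraries. The interval lay within -1 to 1, that is within a 2-fold difference either way, for 12010 genes (79.7%). Among the 2019 genes called in both genotypes it did so for 1557 (77.1%). For the remaining genes, Lpl and H2-T24 among them, the interval reached a 2-fold difference or more.

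**Figure D1:**
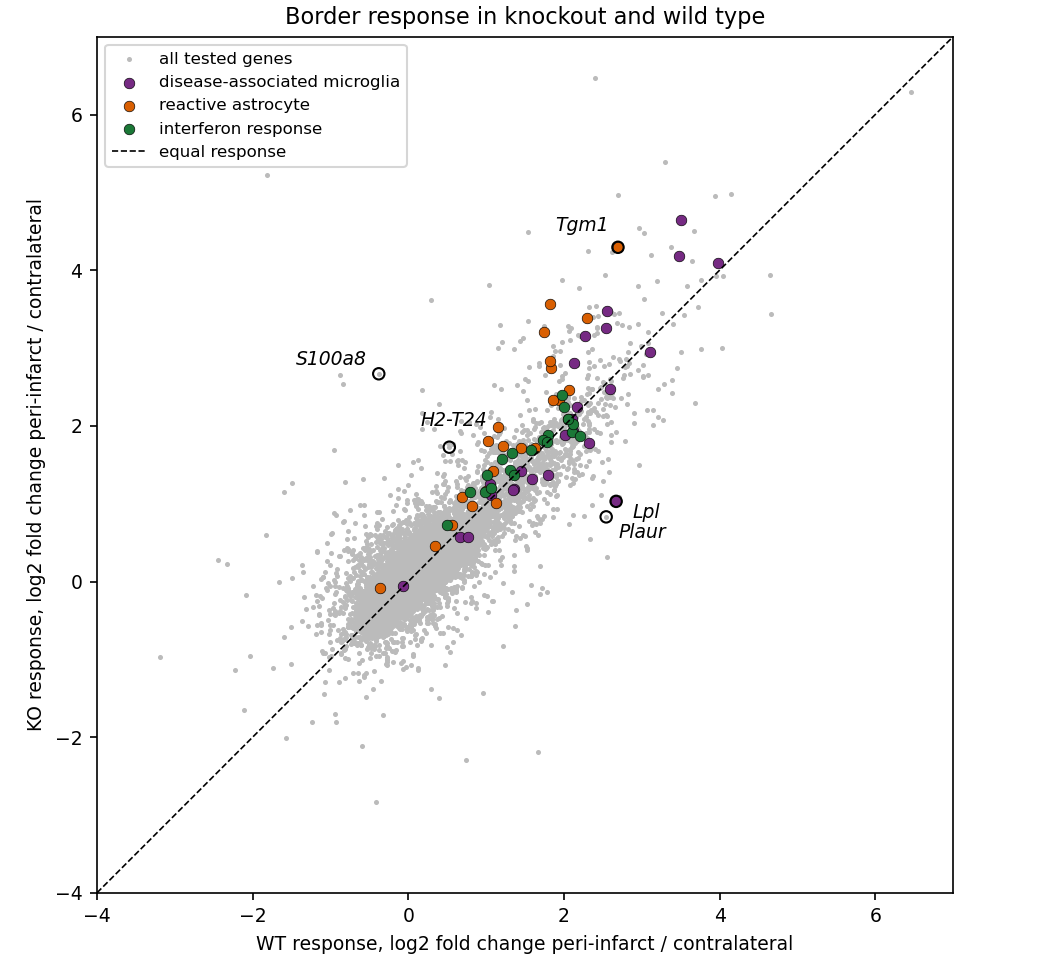
Each point is 1 tested gene, with the WT response on the x axis and the KO response on the y axis (both log2 peri-infarct over contralateral). Coloured points are members of 3 gene lists and the dashed line marks an equal response. Lpl and Plaur lie below that line, and Tgm1, H2-T24 and S100a8 lie above it.

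The targeted gene was low in every KO library, as its label says. Trem2 was at 2.44, 3.15 and 3.83 CPM in KO peri-infarct tissue and 0.701, 0.930 and 0.349 in KO contralateral tissue, against 129, 91.9 and 127 in WT peri-infarct tissue and 28.2, 21.0 and 27.9 in WT contralateral tissue. The 6 KO libraries lay below the 6 WT libraries, with log2 differences of -5.20 ± 0.22 in peri-infarct tissue (adjusted p = 5.16e-07) and -5.27 ± 0.28 in contralateral tissue (adjusted p = 5.59e-06). The residual Trem2 reads were higher at the border in both genotypes, with responses of 2.24 ± 0.34 in KO and 2.17 ± 0.18 in WT mice, and a difference between them of 0.071 ± 0.35. That difference changed sign to -0.26 on log2(TPM + 1). KO against WT called 10 genes in peri-infarct tissue (0.0663%; 2146, or 14.2%, at an unadjusted p under 0.05) and 3 in contralateral tissue (0.0199%; 1480, or 9.82%). The contralateral calls were Trem2, Glo1, which detoxifies methylglyoxal, and Mmut, a mitochondrial enzyme of propionate breakdown, and all 3 were also called at the border. Among the other peri-infarct calls were Lpl, Itgb5, Polh (a DNA polymerase that bypasses lesions), Arap3 (a GTPase-activating protein) and Nnt (the mitochondrial transhydrogenase), all lower in KO, and H2-T24, higher in KO. The peri-infarct count was 2 without KO peri-infarct replicate 1 or replicate 3, 86 without WT peri-infarct replicate 2, and 1, Trem2, without the 2 choroid-rich libraries. It was 4 to 6 without KO contralateral replicate 1, WT contralateral replicate 1 or 2 or WT peri-infarct replicate 1 or 3, and the contralateral count was 1 without KO contralateral replicate 3 or WT contralateral replicate 1.

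Lpl, lipoprotein lipase, which releases fatty acids from lipoproteins and is a marker of disease-associated microglia, gave the smallest p of all genes. It was at 34.8, 46.9 and 40.6 CPM in KO peri-infarct tissue and 21.8, 18.1 and 19.9 in KO contralateral tissue, against 215, 116 and 135 in WT peri-infarct tissue and 23.1, 29.5 and 20.6 in WT contralateral tissue. Each KO peri-infarct library lay below each WT peri-infarct library, while the KO and WT contralateral libraries overlapped. Lpl rose in both genotypes, by 1.03 ± 0.22 in KO (adjusted p = 0.00795) and by 2.67 ± 0.23 in WT mice (adjusted p = 1.5e-05). The KO minus WT difference of these responses was -1.64 ± 0.31 (interval -2.32 to -0.96, unadjusted p = 0.000253). A gene would have needed an unadjusted p of at most 3.32e-06 to be called alone. The estimate stayed between -1.96 and -1.30 over all alternatives and left-out libraries. DESeq2 called it in 9 of 12 fits that left out 1 library. In peri-infarct tissue Lpl was lower in KO by -1.93 on the log2 scale (adjusted p = 0.011), a call that was lost without KO peri-infarct replicate 1 or 3, and in contralateral tissue the estimate was -0.29 (adjusted p = 0.684).

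H2-T24, a nonclassical class I histocompatibility gene, gave the smallest p among positive differences. It was at 22.1, 25.5 and 21.3 CPM in KO peri-infarct tissue and 5.02, 7.44 and 8.31 in KO contralateral tissue, against 7.49, 8.79 and 8.76 in WT peri-infarct tissue and 6.46, 5.15 and 5.75 in WT contralateral tissue. The KO peri-infarct libraries lay above the libraries of the other groups. The WT peri-infarct libraries lay just above the WT contralateral ones, and both overlapped with the KO contralateral libraries. The response was 1.73 ± 0.17 in KO (adjusted p = 2.54e-05) and 0.53 ± 0.17 in WT mice (adjusted p = 0.0497), with a difference of 1.2 ± 0.24 (interval 0.68 to 1.71, unadjusted p = 0.000262). DESeq2 called it in 2 of 12 fits that left out 1 library. Class I genes are near-identical copies of each other, so the division of reads between H2-T24 and its relatives is uncertain. H2-T24 lies on chromosome 17, as does Trem2 itself. Among genes described below, C4b, Cfb, H2-T23, H2-Eb1 and Mog lie on chromosome 17 too. The part of that position in their values was not tested. Nor was the part of chromosome position tested for the KO against WT calls of Glo1, Mmut and Polh. C4b, a complement component that is made by reactive astrocytes, was at 446, 372 and 321 CPM in KO peri-infarct tissue and 110.4, 103 and 113 in KO contralateral tissue, against 141, 201 and 219.6 in WT peri-infarct tissue and 105, 77.8 and 92.1 in WT contralateral tissue. All KO peri-infarct libraries were above all WT peri-infarct libraries, and the contralateral libraries of the genotypes overlapped. C4b rose by 1.80 ± 0.17 in KO and by 1.03 ± 0.17 in WT mice, with a difference of 0.78 ± 0.24 (unadjusted p = 0.00662). The KO against WT estimate was 1.02 in peri-infarct tissue (adjusted p = 0.0552). Reads of C4b can be shared with its near copy C4a.

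**Figure D2:**
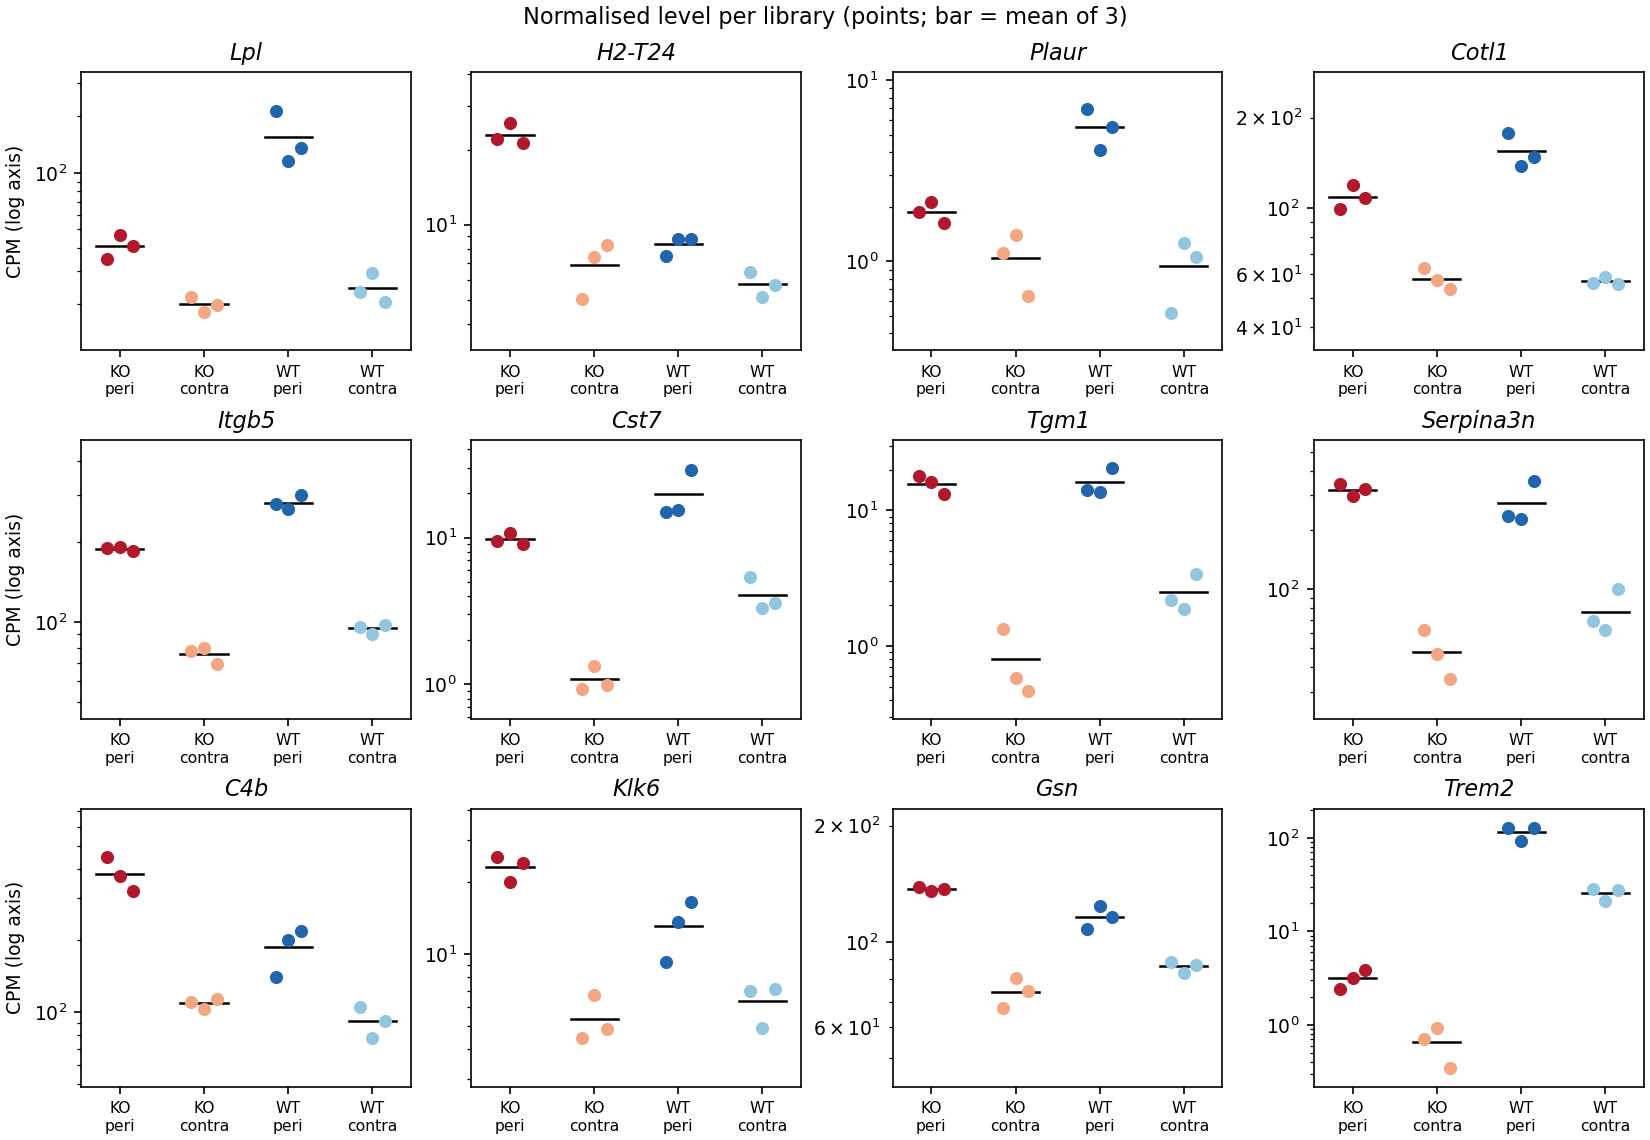
CPM on a log axis in each of the 12 libraries for 12 genes, with KO peri-infarct, KO contralateral, WT peri-infarct and WT contralateral tissue from left to right; each point is 1 library and the bar is the mean of 3. For Lpl the gap between genotypes lies in peri-infarct tissue, for Tgm1 in contralateral tissue, and for Itgb5 it is present in both regions.

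Cotl1, Tmsb4x and Gsn, all of which bind actin, and the surface receptor Plaur were among the other genes with the smallest p, and edgeR called none of the 4. DESeq2 called Gsn in 2 of 12 fits that left out 1 library, and its adjusted p for Gsn was 0.0521 with all 12. Cotl1, an actin-binding protein of leukocytes and microglia, was at 98.9, 119 and 108 CPM in KO peri-infarct tissue and 63.0, 57.6 and 53.5 in KO contralateral tissue, against 177, 138 and 148 in WT peri-infarct tissue and 56.2, 59.0 and 55.9 in WT contralateral tissue. Its KO peri-infarct libraries were all below the WT ones, and the contralateral libraries overlapped. It rose by 0.90 ± 0.10 in KO and 1.44 ± 0.10 in WT mice, with a difference of -0.53 ± 0.14 (unadjusted p = 0.00261). Tmsb4x, thymosin beta 4, which sequesters actin monomers, was at 820.4, 1009 and 923 CPM in KO peri-infarct tissue and 676, 786 and 819 in KO contralateral tissue, against 1338, 1091 and 1252 in WT peri-infarct tissue and 632, 746 and 692 in WT contralateral tissue. Its peri-infarct libraries did not overlap between genotypes, and its contralateral libraries did. It rose in WT mice, by 0.83 ± 0.11, and its KO response of 0.27 ± 0.11 did not pass (adjusted p = 0.103), with a difference of -0.56 ± 0.16 (unadjusted p = 0.00359). Gsn, gelsolin, which severs actin filaments, had the opposite sign. It was at 138, 135 and 137 CPM in KO peri-infarct tissue and 67.4, 80.6 and 74.4 in KO contralateral tissue, against 108, 124 and 116 in WT peri-infarct tissue and 88.8, 83.1 and 87.1 in WT contralateral tissue. The KO libraries lay above the WT libraries in peri-infarct tissue and below them in contralateral tissue. It rose by 0.88 ± 0.075 in KO and 0.42 ± 0.075 in WT mice, with a difference of 0.46 ± 0.11 (interval 0.23 to 0.69, unadjusted p = 0.000932). Plaur, the urokinase receptor of activated myeloid cells, was at 1.88, 2.12 and 1.62 CPM in KO peri-infarct tissue and 1.11, 1.40 and 0.640 in KO contralateral tissue, against 6.91, 4.13 and 5.49 in WT peri-infarct tissue and 0.514, 1.26 and 1.06 in WT contralateral tissue, low values at which single reads weigh. The peri-infarct libraries did not overlap between genotypes and the contralateral ones did. It rose in WT mice by 2.54 ± 0.34 and its KO response of 0.83 ± 0.35 did not pass (adjusted p = 0.116), with a difference of -1.71 ± 0.49 (unadjusted p = 0.00442).

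Other positive differences with small p were seen for Klk6, Ecm2, Sema3g, Slc6a7, Chrna4 and Trim36. Klk6, a secreted serine protease of oligodendrocytes, was at 25.5, 20.0 and 24 CPM in KO peri-infarct tissue and 4.44, 6.74 and 4.83 in KO contralateral tissue, against 9.28, 13.6 and 16.6 in WT peri-infarct tissue and 6.97, 4.91 and 7.16 in WT contralateral tissue. Its KO peri-infarct libraries lay above all others, and it rose by 2.12 ± 0.23 in KO and 1.05 ± 0.23 in WT mice (difference 1.07 ± 0.32, unadjusted p = 0.00568). Ecm2, an extracellular matrix protein, and Sema3g, a semaphorin of blood vessels, rose in KO (0.57 ± 0.17 and 0.48 ± 0.14), while their WT estimates of -0.41 ± 0.17 and -0.33 ± 0.14 did not pass. Their differences were 0.97 ± 0.24 and 0.81 ± 0.20. Slc6a7, the proline transporter of glutamatergic terminals, and Chrna4, a subunit of the neuronal nicotinic receptor, fell in WT (-0.60 ± 0.088 and -0.60 ± 0.14), while their KO estimates of -0.16 ± 0.087 and 0.024 ± 0.14 did not pass. Trim36, a ubiquitin ligase, rose in KO by 0.57 ± 0.17 and did not pass in WT mice (-0.20 ± 0.17). The other negative differences among the 10 smallest p were those of Eif2s1 (a translation initiation factor, -0.43 ± 0.12), Mrps14 (a mitochondrial ribosomal protein, -0.34 ± 0.09), Timm23 (a mitochondrial import channel, -0.34 ± 0.098), Nudcd2 (-0.50 ± 0.13), Styx (a pseudophosphatase, -0.50 ± 0.14) and Lsm4 (a spliceosomal protein, -0.40 ± 0.12). Eif2s1, Nudcd2, Styx and Lsm4 rose in WT and did not pass in KO mice, whereas Mrps14 and Timm23 fell in KO and did not pass in WT mice.

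Disease-associated microglia genes rose at the border with and without Trem2. Of 25 tested, 24 rose in KO mice (21 without the 2 choroid-rich libraries) and 24 in WT mice, with median responses of 1.88 in KO and 2.11 in WT mice. The median difference of the responses was -0.021, with 11 of 25 estimates above 0 (41.7% of all genes). edgeR called 0 of these differences, and DESeq2 called that of Lpl. The levels themselves leaned one way in both regions. Trem2, itself 1 of the 25, is low in KO by the genotype and lends no support to that lean. The KO against WT estimate was below 0 for 24 of 25 members in peri-infarct tissue (57.5% of all genes), with a median of -0.85 and calls of Trem2 and Lpl. In contralateral tissue it was below 0 for 23 of 25 (48.6% of all genes), with a median of -0.70 and a call of Trem2. Spp1 and Clec7a, chosen after their values were seen, are 2 examples. Spp1, osteopontin, was at 613, 847 and 1338 CPM in KO peri-infarct tissue and 53.7, 44.1 and 14.4 in KO contralateral tissue, against 4294, 1697 and 2862 in WT peri-infarct tissue and 290.3, 196 and 296 in WT contralateral tissue. The KO libraries were below the WT libraries within each region, and the difference of responses was 1.14 ± 0.69 (interval -0.40 to 2.68), which ran from 0.40 to 1.72 when libraries were left out. Clec7a, a receptor for fungal glucans, was at 19.4, 27.8 and 31.4 CPM in KO peri-infarct tissue and 2.51, 3.02 and 1.51 in KO contralateral tissue, against 92, 55.5 and 84.2 in WT peri-infarct tissue and 15.5, 8.32 and 15.5 in WT contralateral tissue, with a difference of responses of 0.92 ± 0.45 (interval -0.073 to 1.92). Cst7, a cysteine protease inhibitor, was at 9.55, 10.8 and 9.02 CPM in KO peri-infarct tissue and 0.935, 1.34 and 0.988 in KO contralateral tissue, against 15, 15.4 and 28.7 in WT peri-infarct tissue and 5.37, 3.29 and 3.58 in WT contralateral tissue. Its KO values were below its WT values in each region, it rose by 3.16 ± 0.31 in KO and 2.27 ± 0.27 in WT mice, and the difference was 0.89 ± 0.41 (unadjusted p = 0.0494). Lpl was the member with the most negative difference, and its contralateral levels overlapped between genotypes, unlike those of Spp1, Clec7a and Cst7.

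Genes of phagocytosis and the lysosome rose at the border in both genotypes. All 25 tested rose in KO and in WT mice, with median responses of 1.51 in KO and 1.62 in WT mice and a median difference of -0.11, which was 0.00088 on log2(TPM + 1). Of the 25, 1 passed the filter through the border libraries alone. Without the 2 choroid-rich libraries 22 of the 25 were called in KO and 24 in WT mice. The KO against WT median was -0.42 in peri-infarct and -0.30 in contralateral tissue, and 23 of 25 estimates were below 0 in each region (57.5% of all genes in peri-infarct and 48.6% in contralateral tissue). Itgb5, an integrin subunit that takes part in the uptake of apoptotic cells, was at 189, 191 and 185 CPM in KO peri-infarct tissue and 77.6, 79.4 and 69.2 in KO contralateral tissue, against 277, 265 and 299.9 in WT peri-infarct tissue and 95.4, 90.2 and 97.4 in WT contralateral tissue. The KO libraries lay below the WT libraries in each region, Itgb5 rose by 1.32 ± 0.074 in KO and 1.57 ± 0.074 in WT mice, and the difference was -0.25 ± 0.10 (interval -0.47 to -0.027, unadjusted p = 0.031). Of 16 homeostatic microglia genes 12 rose in each genotype, with medians of 1.10 in KO and 1.17 in WT mice. Olfml3, a secreted glycoprotein of microglia, rose by 1.40 ± 0.12 in KO and 1.80 ± 0.12 in WT mice, a difference of -0.40 ± 0.17. Of 15 genes of the Trem2 complex and its signalling 14 rose in each genotype, with medians of 1.71 in KO and 1.70 in WT mice. Adam17, the sheddase that cuts Trem2 from the surface, had a difference of -0.24 ± 0.12, and 2 of the 15, Hcst among them, passed the filter through the border libraries alone.

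**Figure D3:**
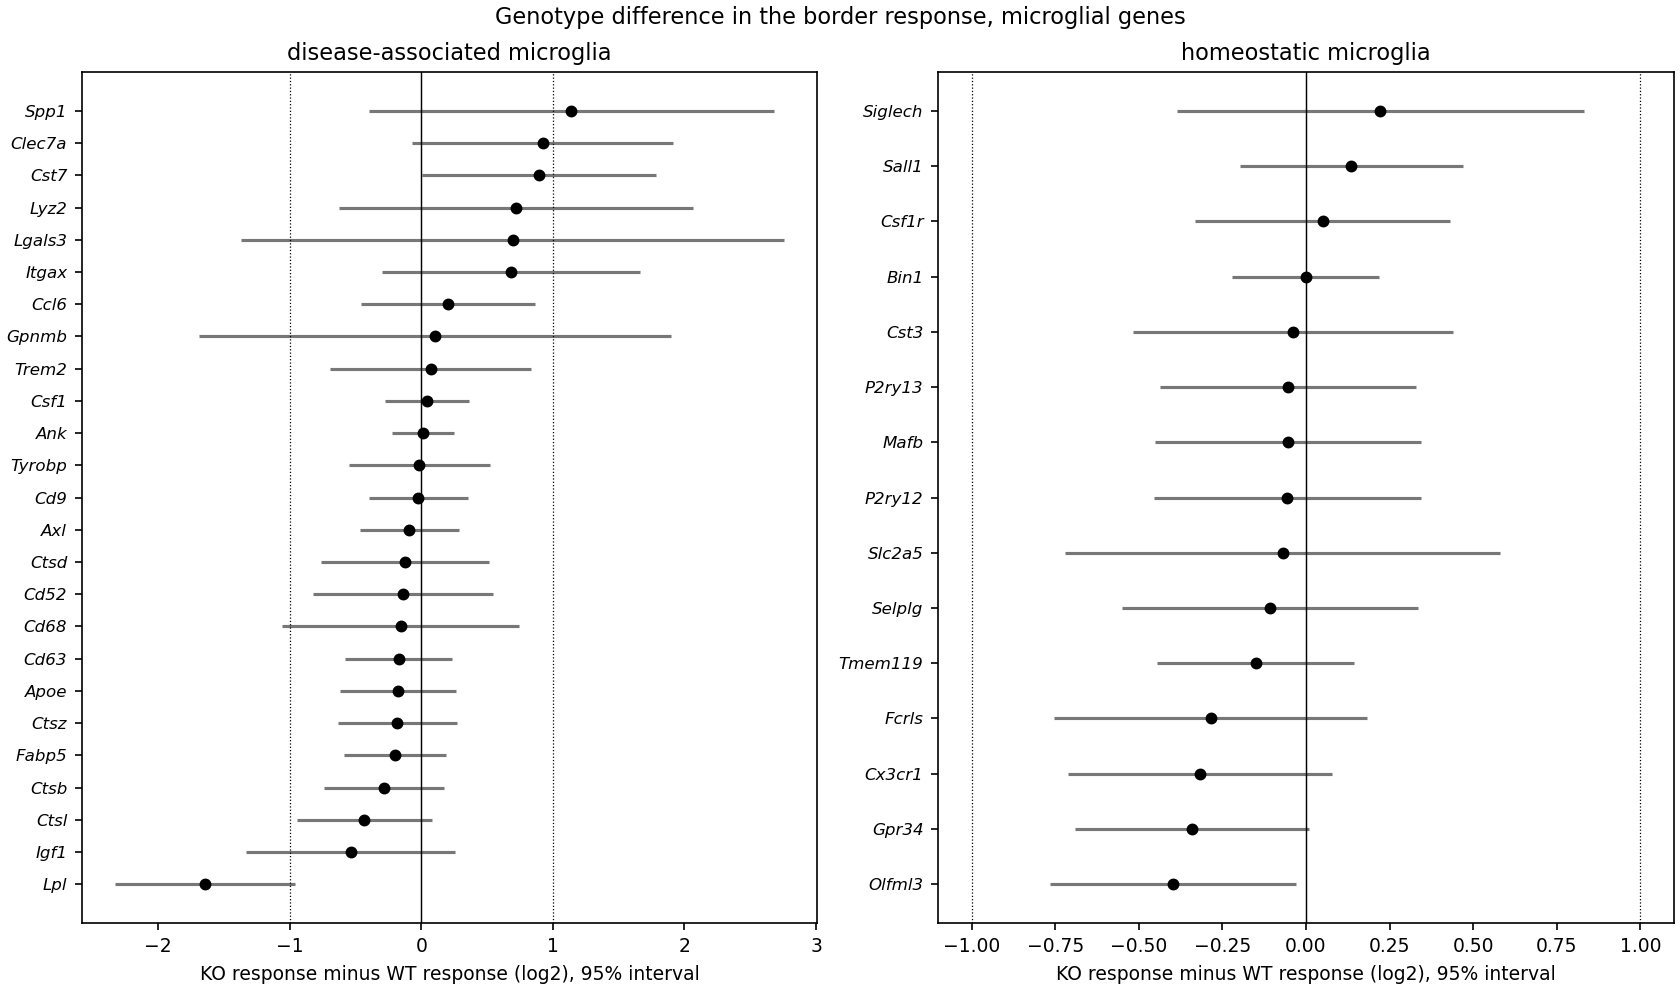
KO response minus WT response (log2) for members of the microglial lists (1 not shown), with points for estimates, lines for 95% intervals and dotted lines at -1 and 1. The interval of Lpl, -2.32 to -0.96, lies farthest below 0, and the intervals of the others include 0 except those of Cst7 and Olfml3.

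Most genes of lipid uptake rose and most genes of cholesterol synthesis fell in both genotypes. Of 20 genes of lipid uptake, storage and efflux 15 rose in each genotype, while 2 fell in KO and 1 in WT mice. The KO count of 15 was 12 without KO contralateral replicate 3 or without the 2 choroid-rich libraries. Median responses were 0.60 in KO and 0.71 in WT mice, with a median difference of -0.11 that was 0.014 on log2(TPM + 1). Fabp3, a fatty acid binding protein, had a difference of -0.24 ± 0.16. Of 20 genes of cholesterol synthesis 16 fell in KO and 16 in WT mice, with medians of -0.47 in KO and -0.44 in WT mice. Idi1, the isopentenyl diphosphate isomerase, fell in both genotypes (-0.70 ± 0.11 in KO and -0.45 ± 0.11 in WT mice), and so did Msmo1, a sterol methyl oxidase (-0.57 ± 0.07 in KO and -0.45 ± 0.07 in WT mice). Their differences of -0.25 ± 0.16 and -0.11 ± 0.099 have intervals of -0.59 to 0.089 and -0.33 to 0.10. For the median differences of these 2 lists, -0.11 and -0.036, the all-gene median is -0.034.

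Interferon response genes rose at the border in both genotypes. Of 20 listed genes 19 were tested and 1 was not in the table. Of the 19, 19 rose in KO (12 without the 2 choroid-rich libraries) and 17 in WT mice (11 without WT contralateral replicate 3), with medians of 1.69 in KO and 1.57 in WT mice. The median difference was 0.12, with 16 of 19 estimates above 0 (41.7% of all genes), and this median ran from -0.32 to 0.55 when libraries were left out. These genes are known to be driven by interferon through a response element, and the promoters of 3 effectors are shown for that element. The sequences are from RefSeq on GRCm38.p6, each from 250 bases before to 50 bases after the gene's start, and the capitals mark matches to GAAA, any 2 bases and GAAA on either strand (TTTC, any 2 bases and TTTC where the match is on the other strand), overlapping matches included. The files use build GRCm39, so the coordinates do not carry over. Isg15, a ubiquitin-like modifier of proteins (chr4:156200769-156201068, minus strand), holds 3 overlapping matches, Ifit3, an antiviral RNA-binding complex member (chr19:34583279-34583578, plus strand), holds 2, and Cxcl10, the chemokine that attracts T cells (chr5:92348840-92349139, minus strand), holds 1.
Isg15: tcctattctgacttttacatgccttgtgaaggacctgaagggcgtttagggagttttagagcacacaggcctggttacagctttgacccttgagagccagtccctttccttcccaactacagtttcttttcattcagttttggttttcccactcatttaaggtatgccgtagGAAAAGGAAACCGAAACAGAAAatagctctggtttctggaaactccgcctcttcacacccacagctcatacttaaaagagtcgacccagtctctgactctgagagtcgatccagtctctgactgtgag
Ifit3: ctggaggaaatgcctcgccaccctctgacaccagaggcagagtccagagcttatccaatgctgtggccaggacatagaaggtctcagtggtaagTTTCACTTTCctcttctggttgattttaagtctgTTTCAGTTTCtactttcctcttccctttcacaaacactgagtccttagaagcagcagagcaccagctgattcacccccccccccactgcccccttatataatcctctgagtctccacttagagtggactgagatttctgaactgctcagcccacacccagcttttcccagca
Cxcl10: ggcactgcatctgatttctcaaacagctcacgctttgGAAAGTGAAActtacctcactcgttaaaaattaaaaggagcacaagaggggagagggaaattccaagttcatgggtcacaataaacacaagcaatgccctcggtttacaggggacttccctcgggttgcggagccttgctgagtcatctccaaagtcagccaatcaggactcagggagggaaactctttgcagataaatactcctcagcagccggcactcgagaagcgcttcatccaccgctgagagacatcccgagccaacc
The element was in 10 of the 14 interferon list genes with a promoter in the table (71.4%) and in 3.99% of all 27025 genes of the table (3.44% of its 32851 promoters). A match describes the letters only. The 3 genes, chosen after their values were seen, had estimates of the difference near 0 with wide intervals. Isg15 rose by 1.69 ± 0.39 in KO and 1.57 ± 0.41 in WT mice, a difference of 0.12 ± 0.57 (interval -1.12 to 1.37). Ifit3 rose by 1.43 ± 0.40 in KO mice and had an estimate of 1.31 ± 0.41 in WT mice that did not pass (adjusted p = 0.0528), a difference of 0.12 ± 0.57. Cxcl10 rose by 2.09 ± 0.53 in KO and 2.05 ± 0.55 in WT mice, a difference of 0.038 ± 0.78 (interval -1.68 to 1.76), wide enough to hold a 3-fold difference in either direction. Without the 2 choroid-rich libraries these 3 differences turned to -0.13, -0.11 and -0.23. Ifitm3, which restricts viral entry, and Stat2, the signal transducer of type I interferon, had differences of 0.37 ± 0.22 and 0.24 ± 0.16. In level, 18 of 19 KO against WT estimates were above 0 in peri-infarct tissue (median 0.58) and 17 in contralateral tissue (median 0.40), none of them called by edgeR. Over all genes 57.5% of these estimates were below 0 in peri-infarct and 48.6% in contralateral tissue. Without KO contralateral replicate 3 the contralateral median of the interferon genes was -0.034. Their summed level was 367.5 CPM in that library, against 189.2 and 222.6 in KO contralateral replicates 1 and 2.

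Antigen presentation genes also rose in both. Of 12 class I genes 11 rose in each genotype, with medians of 1.57 in KO and 1.36 in WT mice. H2-T23, which encodes the nonclassical class I molecule Qa-1, was at 30.7, 35.7 and 34.3 CPM in KO peri-infarct tissue and 10.7, 14.1 and 17.3 in KO contralateral tissue, against 36.8, 38.0 and 43.4 in WT peri-infarct tissue and 27.2, 21.0 and 28.2 in WT contralateral tissue. Its KO contralateral libraries lay below all WT contralateral libraries and the peri-infarct libraries of KO lay just below those of WT, so the contralateral gap was the wider one. It rose by 1.26 ± 0.16 in KO and 0.63 ± 0.15 in WT mice, with a difference of 0.63 ± 0.22 (unadjusted p = 0.014). Nlrc5, the transactivator of class I genes, had a difference of 0.58 ± 0.45. Of 8 class II genes 7 rose in KO mice (13.5% of all genes) and 4 in WT mice (14.7% of all genes). The KO count was 4 without KO contralateral replicate 3 and 3 without the 2 choroid-rich libraries. The WT count was 2 without WT contralateral replicate 1 or 2 or WT peri-infarct replicate 3, and 7 without WT contralateral replicate 3. Median responses were 1.49 in KO and 1.00 in WT mice, with 6 of 8 differences above 0 (41.7% of all genes). Ciita, the master regulator of class II genes, was at 1.93, 2.35 and 2.21 CPM in KO peri-infarct tissue and 0.526, 0.756 and 1.22 in KO contralateral tissue, against 1.67, 0.990 and 1.34 in WT peri-infarct tissue and 1.14, 1.14 and 1.64 in WT contralateral tissue. The KO peri-infarct libraries lay above all others. It rose in KO mice by 1.37 ± 0.33 and had a WT estimate of 0.03 ± 0.32, with a difference of 1.34 ± 0.46 (interval 0.34 to 2.33, unadjusted p = 0.0125), which was 0.41 on log2(TPM + 1). H2-Eb1, a class II beta chain, had a difference of 0.92 ± 0.53. Of 16 complement genes 13 rose in each genotype, with medians of 1.92 in KO and 1.44 in WT mice and a median difference of 0.29, which was 0.10 without the 2 choroid-rich libraries. Cfb, factor B of the alternative pathway, was at 6.14, 5.44 and 4.97 CPM in KO peri-infarct tissue and 0.876, 0.756 and 1.22 in KO contralateral tissue, against 1.84, 1.69 and 3.80 in WT peri-infarct tissue and 1.26, 0.658 and 1.47 in WT contralateral tissue, with KO peri-infarct libraries above all others. It rose by 2.53 ± 0.36 in KO and 1.11 ± 0.36 in WT mice, with a difference of 1.42 ± 0.51 (unadjusted p = 0.016). Of 22 chemokines and inflammatory cytokines 19 were tested, of which 14 rose in KO and 10 in WT mice (10 in KO and 11 in WT mice without the 2 choroid-rich libraries). Of the 19, 11 passed the filter on low counts through the border libraries alone, so these counts do not speak for the list. Lif, a cytokine that signals through gp130, rose in KO by 2.02 ± 0.39 and did not pass in WT mice (0.87 ± 0.40), with a difference of 1.15 ± 0.56 that was 0.55 on log2(TPM + 1). Ccl4 had 2 reads in all KO contralateral libraries, so no fold is given for it.

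Reactive astrocyte genes rose in both genotypes and their estimates of the difference were mostly positive. Of 23 tested, 21 rose in KO (19 without the 2 choroid-rich libraries) and 20 in WT mice, with median responses of 1.80 in KO and 1.44 in WT mice. The WT count was 16 without WT contralateral replicate 1 or 2 or WT peri-infarct replicate 3. The difference was above 0 for 22 of 23 members (41.7% of all genes) with a median of 0.40, and an unadjusted p under 0.05 was found for 5 (3.43% of all genes), with 0 called by edgeR. The median stayed between 0.40 and 0.51 over the alternatives and between 0.26 and 0.57 on leaving out libraries. In level, the KO against WT median was 0.064 in peri-infarct tissue, with 15 of 23 estimates above 0. In contralateral tissue it was -0.28, with 18 of 23 below 0 (48.6% of all genes). The wider gap of the medians was thus the lower KO level in contralateral tissue. Tgm1, a transglutaminase, was at 17.9, 16.3 and 13.1 CPM in KO peri-infarct tissue and 1.34, 0.581 and 0.465 in KO contralateral tissue, against 14.2, 13.6 and 20.5 in WT peri-infarct tissue and 2.17, 1.86 and 3.40 in WT contralateral tissue. The peri-infarct libraries overlapped between genotypes, and the KO contralateral libraries lay below all WT contralateral libraries. It rose by 4.29 ± 0.34 in KO and 2.69 ± 0.30 in WT mice, with a difference of 1.6 ± 0.46 (interval 0.60 to 2.60, unadjusted p = 0.00465) that was 0.96 on log2(TPM + 1). The KO against WT estimates were -0.029 in peri-infarct and -1.63 in contralateral tissue (adjusted p = 0.327). Serpina3n, a secreted serine protease inhibitor chosen after its values were seen, was at 341, 298 and 322 CPM in KO peri-infarct tissue and 62.0, 46.9 and 35.1 in KO contralateral tissue, against 235, 228 and 357 in WT peri-infarct tissue and 68.5, 61.8 and 100.2 in WT contralateral tissue, and rose by 2.74 ± 0.25 in KO and 1.83 ± 0.24 in WT mice (difference 0.91 ± 0.34, interval 0.17 to 1.65). Its KO contralateral libraries were the lowest of the 4 groups, with 1 overlap of KO and WT values, and its peri-infarct libraries overlapped. The promoter of Tgm1 (chr14:55713443-55713742, minus strand, the first of 2 starts listed in RefSeq on GRCm38.p6) is shown because many reactive astrocyte genes are known targets of Stat3, and the capitals mark matches to TTCNNNGAA, which reads the same on both strands.
Tgm1: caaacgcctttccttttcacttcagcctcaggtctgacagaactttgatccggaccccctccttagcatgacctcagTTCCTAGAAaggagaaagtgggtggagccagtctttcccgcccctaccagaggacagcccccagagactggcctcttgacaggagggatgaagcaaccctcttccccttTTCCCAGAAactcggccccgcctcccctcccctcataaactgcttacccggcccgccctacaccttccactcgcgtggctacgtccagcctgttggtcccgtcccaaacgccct
The motif was in 6 of the 21 reactive astrocyte genes with a promoter in the table (28.6%) and in 9.55% of all genes of the table. It was also in 4 of 14 interferon list genes (28.6%) and 3 of 9 choroid plexus genes (33.3%), and the remaining lists had lower shares. The share is thus not particular to the astrocyte list. Osmr, the oncostatin M receptor, rose by 1.75 ± 0.17 in KO and 1.22 ± 0.16 in WT mice, with a difference of 0.53 ± 0.23. Of 15 ligands and receptors of TGF-beta and gp130 signalling (1 passed the filter through the border libraries alone), 12 rose in KO and 10 in WT mice, with medians of 1.51 in KO and 0.89 in WT mice. The WT count was 7 without WT contralateral replicate 2 or WT peri-infarct replicate 1. Tgfb3, a TGF-beta ligand, had a difference of 0.38 ± 0.16. The 14 resting astrocyte genes had median responses of 0.18 in KO and 0.14 in WT mice. Aqp4, the water channel of astrocyte endfeet, had a difference of 0.27 ± 0.20, and Aldoc, an aldolase, one of -0.23 ± 0.19.

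Myelin genes had a positive difference in all 14 members tested (41.7% of all genes), with a median of 0.46, and kept that sign in all 14 over 31 settings. edgeR called none of them, and 3 had an unadjusted p under 0.05 (3.43% of all genes). DESeq2 called Fa2h in 1 of 12 fits that left out 1 library, the one without WT peri-infarct replicate 2. The response was called higher for 4 of 14 in KO mice (13.5% of all genes) and 0 in WT mice (14.7% of all genes), and lower for 0 in either. Medians were 0.47 in KO and -0.029 in WT mice. The KO count was 1 without KO contralateral replicate 1 or 3, KO peri-infarct replicate 1 or 3 or the 2 choroid-rich libraries, and 7 without WT peri-infarct replicate 1. In WT mice 1 was called higher without WT peri-infarct replicate 1 and 2 lower without WT peri-infarct replicate 2. Mog, a protein of the outer myelin surface, was at 103, 76.0 and 96.5 CPM in KO peri-infarct tissue and 55.3, 70.4 and 68.1 in KO contralateral tissue, against 57.2, 80.8 and 72.7 in WT peri-infarct tissue and 80.6, 64.1 and 69.3 in WT contralateral tissue. The WT regions overlapped, and KO peri-infarct libraries lay above KO contralateral libraries. It rose in KO mice by 0.51 ± 0.15 (adjusted p = 0.0328) and had a WT estimate of -0.022 ± 0.15, with a difference of 0.53 ± 0.21 (unadjusted p = 0.0284). Fa2h, which makes hydroxylated myelin lipids, had a difference of 0.61 ± 0.26 (interval 0.047 to 1.18). The summed level of the myelin genes was 12300, 9053 and 10490 CPM in KO peri-infarct and 6350, 8372 and 8219 in KO contralateral tissue, against 6058, 10480 and 8772 in WT peri-infarct and 8321, 7838 and 7972 in WT contralateral tissue. Within WT peri-infarct tissue replicate 2 was the highest in myelin and in striatal genes, and replicate 1 the lowest in both. The orders were opposite in KO peri-infarct, KO contralateral and WT contralateral tissue. There the library highest in myelin genes was the lowest in striatal genes, and the library lowest in myelin genes was the highest in striatal genes. The part of dissected white matter or striatum in the myelin difference was not tested. Of 10 oligodendrocyte precursor genes 9 had a difference above 0 (41.7% of all genes), with a median of 0.16. The 1 below 0 was Cspg4, the NG2 proteoglycan, which rose by 0.58 ± 0.19 in KO and 1.2 ± 0.19 in WT mice (difference -0.62 ± 0.27). Sox10, the transcription factor of the lineage, had a difference of 0.35 ± 0.18.

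**Figure D4:**
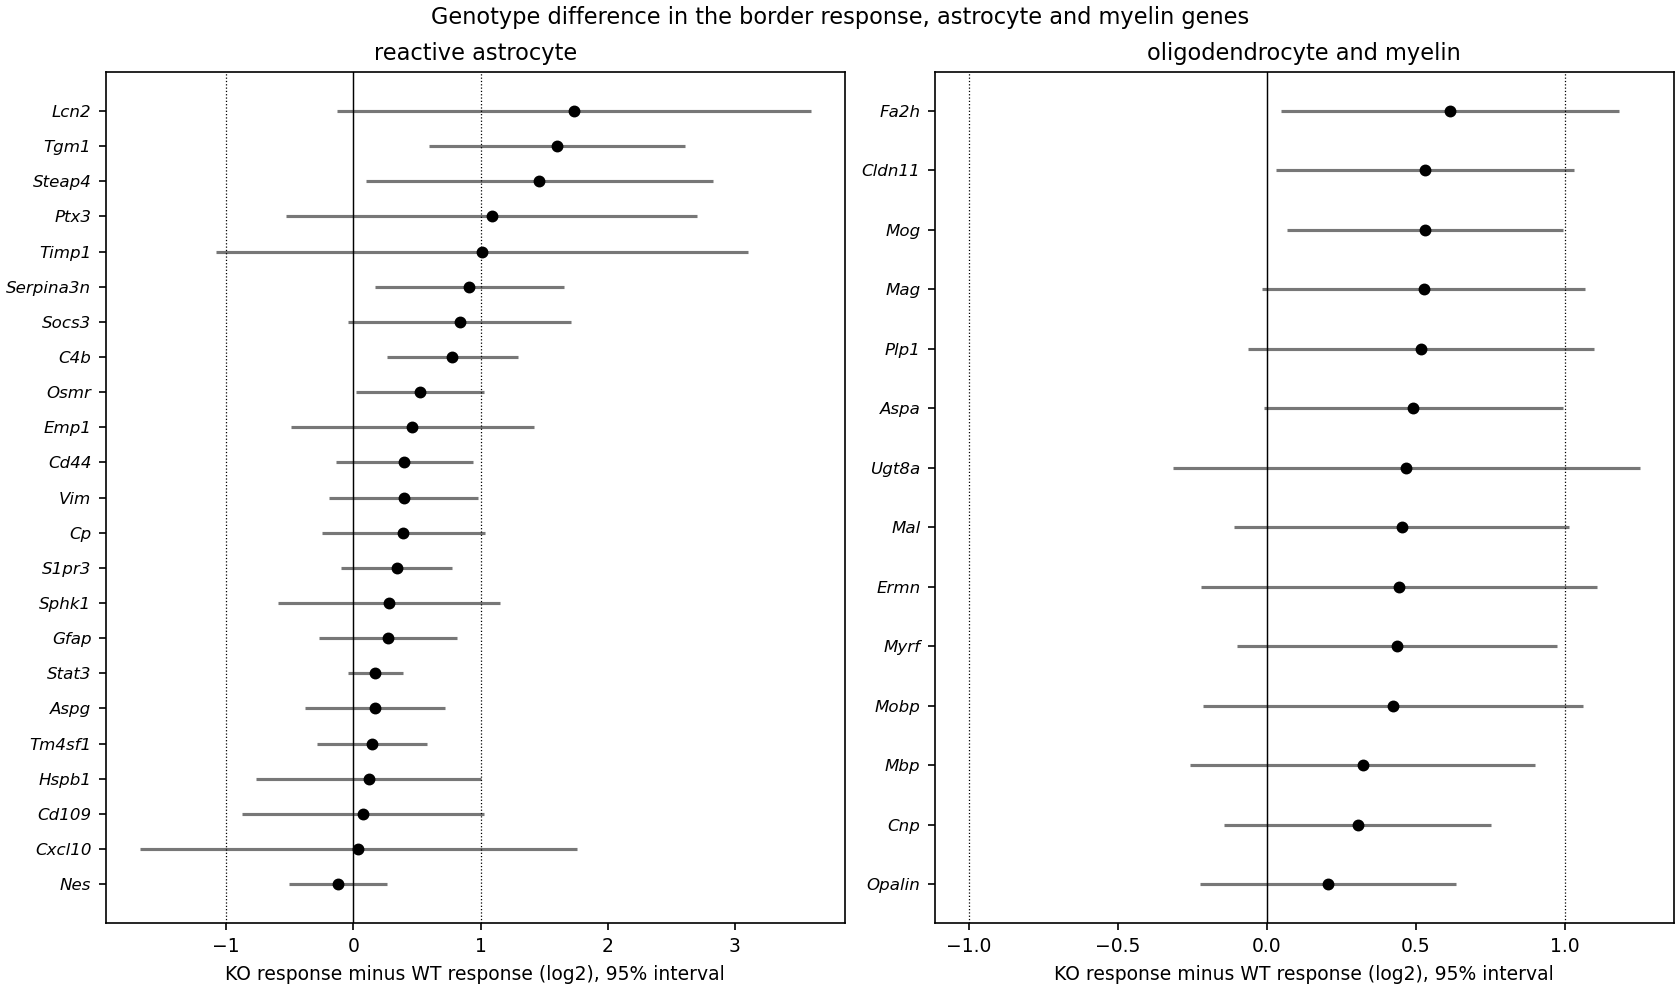
KO response minus WT response (log2) for members of the astrocyte and oligodendrocyte lists, with points for estimates, lines for 95% intervals and dotted lines at -1 and 1. All 14 myelin genes and 22 of 23 reactive astrocyte genes lie above 0, and the intervals of most include 0.

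Cell cycle genes rose in both genotypes, 17 of 20 in KO (13 without the 2 choroid-rich libraries) and 20 of 20 in WT mice, with medians of 1.71 in KO and 2.12 in WT mice. The difference was below 0 for 18 of 20 and above 0 for 2 (41.7% of all genes above 0). Its median of -0.38 ran from -0.63 to -0.078 when libraries were left out. The value of -0.078 was that without WT peri-infarct replicate 1. The summed cell cycle level was 512 CPM in that library and 291 and 324 in WT peri-infarct replicates 2 and 3. In KO peri-infarct tissue it was 209.5 to 273.4. Pcna, the sliding clamp of DNA replication, was at 56.5, 59.6 and 68.4 CPM in KO peri-infarct tissue and 50.2, 53.0 and 56.2 in KO contralateral tissue, against 99.0, 67.8 and 76.3 in WT peri-infarct tissue and 49.7, 49.5 and 52.6 in WT contralateral tissue. Peri-infarct libraries of KO overlapped with WT only through WT replicate 2. Pcna rose in WT mice by 0.68 ± 0.12 and its KO estimate of 0.21 ± 0.12 did not pass, with a difference of -0.47 ± 0.17 (interval -0.84 to -0.095, unadjusted p = 0.018). Ccna2, a cyclin of S phase and G2, rose by 1.68 ± 0.26 in KO and 2.43 ± 0.26 in WT mice, a difference of -0.75 ± 0.36. The 18 nuclear genes of the respiratory chain and its assembly had differences below 0 throughout (range -0.32 to -0.093, median -0.17), while 41.7% of all genes lay above 0. The interval of every one of these differences lay within -1 to 1. In level, the KO against WT median was -0.050 in peri-infarct tissue, with 16 of 18 estimates below 0 (57.5% of all genes). In contralateral tissue it was 0.12, with 18 of 18 above 0, while 48.6% of all genes lay below 0. The wider gap of the medians was thus the higher KO level in contralateral tissue. In response, 7 of the 18 were called lower in KO (6.96% of all genes) and 0 in WT mice (4.11% of all genes). The KO count was 1 without KO contralateral replicate 3 and 4 without KO peri-infarct replicate 1. Timm8b, a chaperone of the mitochondrial intermembrane space, and Sdhb, a subunit of complex II, had differences of -0.32 ± 0.12 and -0.27 ± 0.12. Of 16 genes of hypoxia and glycolysis 13 had a difference below 0 and 3 above 0 (41.7% of all genes above 0). Ldha, lactate dehydrogenase A, and Pgk1, phosphoglycerate kinase, had differences of -0.38 ± 0.14 (interval -0.69 to -0.076) and -0.25 ± 0.095.

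Endothelial genes had mostly positive differences. Of 15 endothelial genes 8 rose in KO (13.5% of all genes; 4 without KO peri-infarct replicate 1, and 5 without KO contralateral replicate 3 or without the 2 choroid-rich libraries) and 1 in WT mice (14.7% of all genes; 0 without WT contralateral replicate 2 or 3 or WT peri-infarct replicate 3, and 2 without KO contralateral replicate 2), and 14 of 15 differences were above 0 (41.7% of all genes), with a median of 0.34. edgeR called none of these differences. In level, the KO against WT median was 0.077 in peri-infarct tissue, with 10 of 15 estimates above 0. In contralateral tissue it was -0.27, with 11 of 15 below 0 (48.6% of all genes). Pecam1, an adhesion molecule of endothelial junctions, was at 24.7, 22.3 and 21.1 CPM in KO peri-infarct tissue and 18.1, 13.7 and 12.7 in KO contralateral tissue, against 18.3, 16.1 and 22.5 in WT peri-infarct tissue and 19.4, 15.5 and 19.4 in WT contralateral tissue. The KO peri-infarct libraries lay above the KO contralateral ones, while the WT regions overlapped. It rose by 0.61 ± 0.15 in KO mice and had a WT estimate of 0.069 ± 0.15, with a difference of 0.54 ± 0.22 (unadjusted p = 0.0288). Tie1, an endothelial receptor tyrosine kinase, had a difference of 0.66 ± 0.28. The 20 scar and matrix genes had median responses of 1.14 in KO and 1.08 in WT mice. Pdgfrb, the receptor that marks pericytes and fibroblasts, and Thbs1, thrombospondin 1, had differences of 0.42 ± 0.19 and 1.28 ± 0.64. Pericyte and smooth muscle genes had median responses of 0.47 in KO and 0.30 in WT mice, and Vtn, vitronectin, had a difference of 0.41 ± 0.24. Among matrix proteases Mmp2, a gelatinase, and Adamts4, an aggrecanase, had differences of 0.57 ± 0.32 and 0.37 ± 0.23. Among neuronal lists, median responses were -0.46 in KO and -0.49 in WT mice for 14 inhibitory neuron genes, -0.29 in KO and -0.27 in WT mice for 19 synaptic genes and -0.56 in KO and -0.64 in WT mice for 15 immediate early genes. The medians were -0.24 in KO and -0.19 in WT mice for 16 excitatory cortical, -0.013 in KO and 0.028 in WT mice for 10 striatal projection and 0.10 in KO and 0.14 in WT mice for 11 hippocampal and thalamic neuron genes. Members with the smallest p in the first 3 of these lists were Vip, a peptide of interneurons (-0.49 ± 0.27), Dlx2, an interneuron transcription factor (0.63 ± 0.40), Snap25, a membrane fusion protein (-0.14 ± 0.13), Dlg4, the scaffold PSD-95 (-0.15 ± 0.16), and the transcription factors Atf3 (-0.81 ± 0.44) and Fosb (0.71 ± 0.46). Infiltrating macrophage genes had median responses of 1.90 in KO and 2.08 in WT mice, and their summed level was 578 to 898 CPM in KO peri-infarct and 118 to 152 in KO contralateral tissue, against 917 to 1933 in WT peri-infarct and 174 to 338 in WT contralateral tissue. The part of these cells in the KO against WT levels of microglial genes was not tested. Cd163, the haemoglobin scavenger receptor, had a difference of 0.71 ± 0.48, and 3 of the 13 tested, Chil3 among them, passed the filter through the border libraries alone. Other blood cell markers were sparse. Of 12 neutrophil genes 6 were tested and Ly6g, which defines the cell type, was at 0 in all 12 libraries. The summed neutrophil level was 62.5 to 63.5 CPM in KO peri-infarct and 12.1 to 18 in KO contralateral tissue, against 50.8 to 67.9 in WT peri-infarct and 18.1 to 26.2 in WT contralateral tissue. S100a8, a calcium-binding protein of neutrophils, was at 0.568, 1.37 and 2.97 CPM in KO peri-infarct tissue and 0.175, 0.407 and 0.174 in KO contralateral tissue, against 0.922, 0.640 and 0.467 in WT peri-infarct tissue and 0.457, 1.44 and 0.763 in WT contralateral tissue. The KO peri-infarct libraries lay above the KO contralateral ones and overlapped with both WT groups. S100a8 passed the filter through the border libraries alone and had 13 reads in all KO contralateral libraries. Its estimate of the difference was 3.05 ± 0.90 (interval 1.09 to 5.01, unadjusted p = 0.00528), which lends no support to a rise. Csf3r, the receptor for granulocyte colony-stimulating factor, had a difference of 0.42 ± 0.21.

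**Figure D5:**
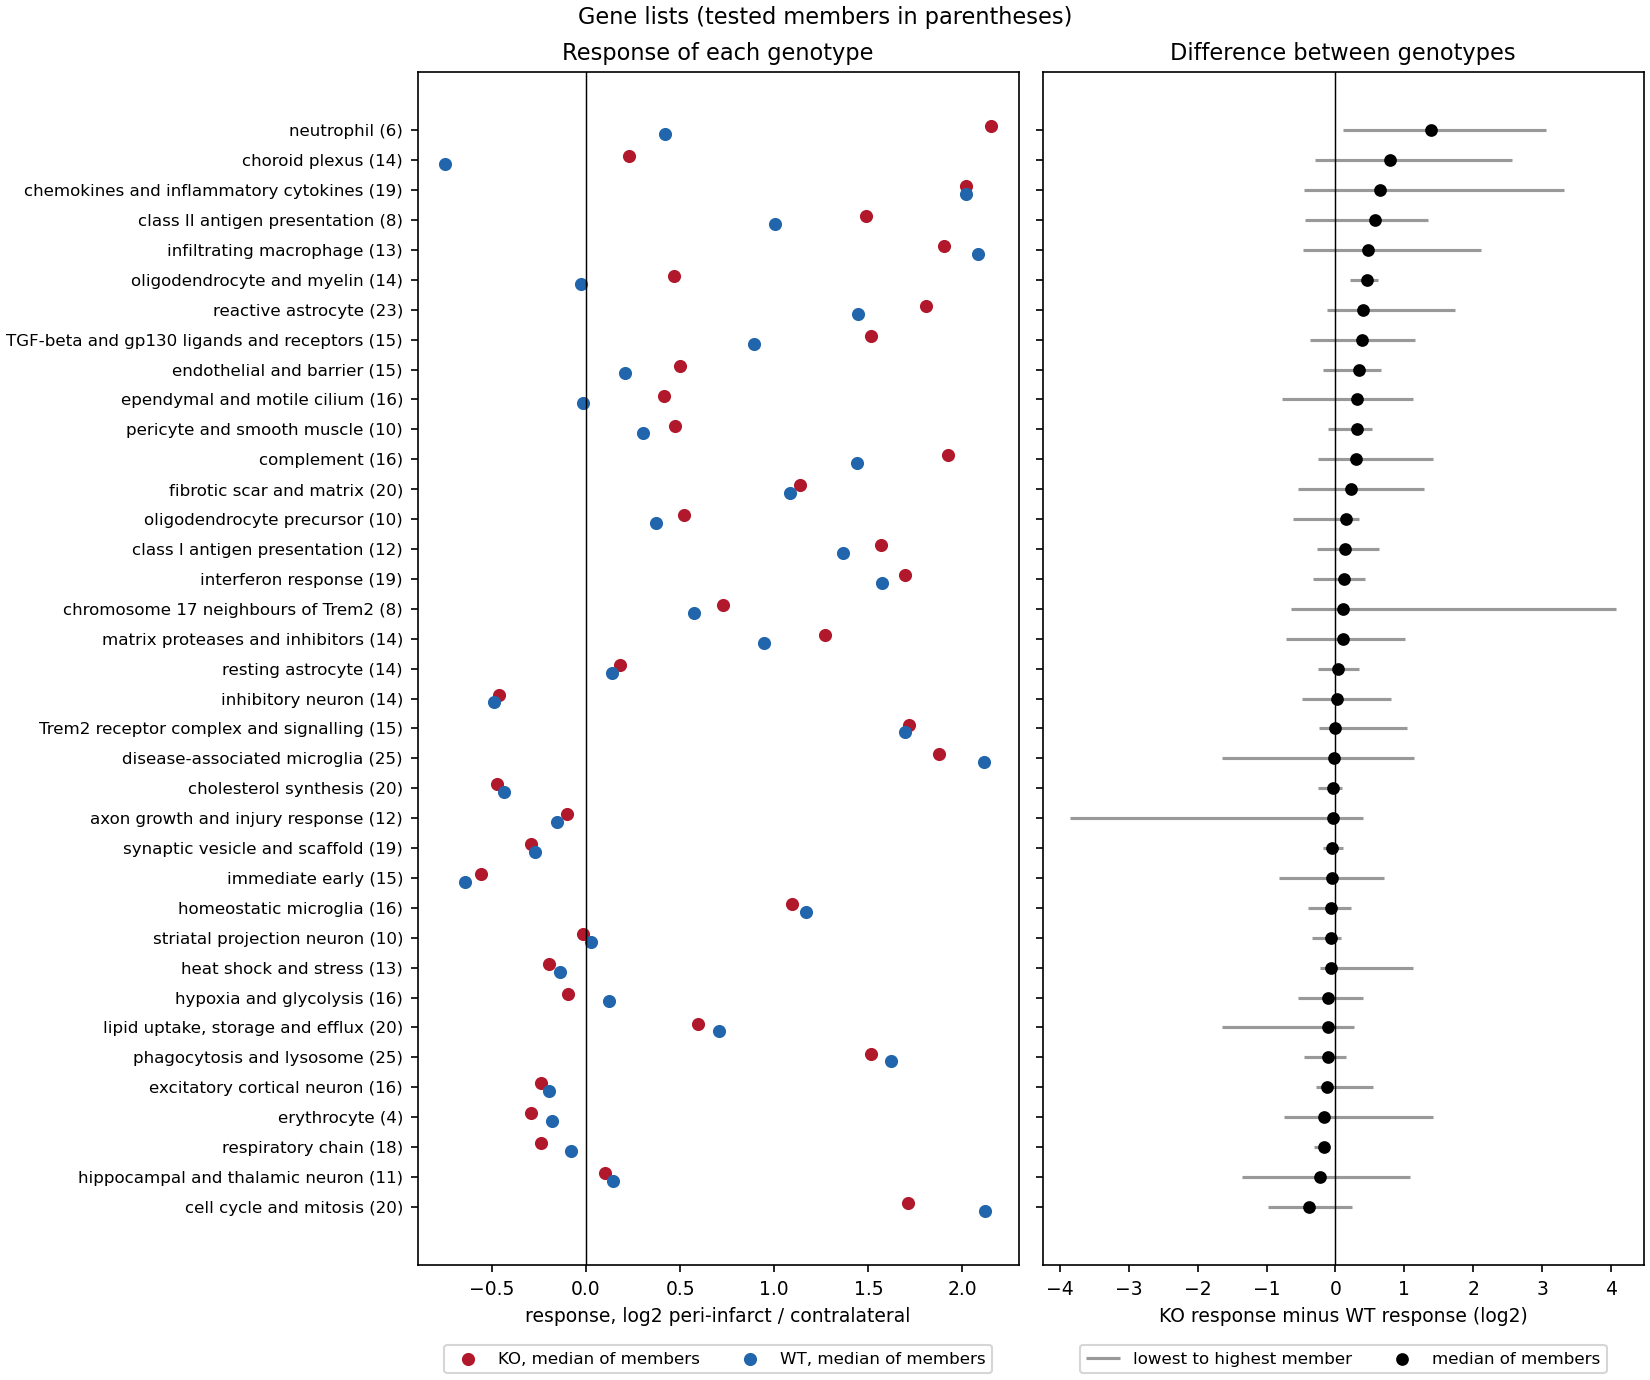
For 37 gene lists with at least 3 tested members, the left panel gives the median response of the members in KO and WT mice (log2 peri-infarct over contralateral) and the right panel the median, lowest and highest KO response minus WT response (log2). Neutrophil genes stand at the top with a median of 1.39 over 6 tested members (2 of which passed the filter on low counts through the border libraries alone), cell cycle genes at the bottom with -0.38, and the microglial lists near 0.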

How the data were processed

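Expected counts and TPM of 18922 genes were deposited as 1 table each, and all sample columns of both were used (0 left out). The deposited expected counts (estimated counts) were not whole for 3678 genes (19.4%), so they were rounded, whereas the tests had been laid out for whole counts. The deposited TPM, which the authors scaled to transcript length and library, served as alternatives only. HISAT2 2.0.4, Bowtie2, Subread and build GRCm39 (mm39) are named per the submitters' processing notes, with no counting tool given there. Reads of near copies such as class I genes can be divided between them, and no use of strand is stated.

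The 12 libraries were fitted with edgeR 4.0.16, R 4.3.3 (robust quasi-likelihood test, TMM, filterByExpr by group, a mean per group), and 15075 genes were tested. Calls were made below a Benjamini-Hochberg adjusted p of 0.05 over all of them. The SE is the absolute log2 fold change over the square root of the F statistic, and the 95% intervals use it with the t quantile of the gene's degrees of freedom. The scripts were tested on simulated data. Named genes are Trem2, the 10 smallest p in each direction of the difference (mean log2 CPM of at least 1, proper symbol), and the 2 smallest p of each of 39 lists (569 genes) described. Of these, 1 is not reported here. Other names are said to be chosen later. Members, lists and tests were chosen with earlier results of these data known. Alternatives were DESeq2 1.42.0, limma 3.58.1 (voom, and log2 TPM with pseudocounts of 1 and 0.1), other filters, scalings, sample sets and blocks, and leaving out libraries. The 5 comparisons share libraries, so their results are not independent. Promoters are from RefSeq on GRCm38.p6, which listed 14 of the 21 leading genes. Lpl, H2-T24 and C4b were not among them.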

Additional observations from a re-analysis of the deposited data

How the results depend on the processing

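The count of 0 for the difference between responses held in edgeR under the other size factors, filters, sample sets, blocks and left-out libraries tried. DESeq2 gave 2 (0 to 5 when 1 library was left out, with Lpl called in 9 and H2-T24 in 2 of 12 fits). Leaving out libraries moved the KO response count between 1308 and 3545, the WT count between 1479 and 2939, the KO against WT count between 2 and 118 in peri-infarct and between 1 and 7 in contralateral tissue. Without the 2 choroid-rich libraries, a choice made after seeing the data, as were the list medians here, the KO response gave 1622 and the peri-infarct contrast 1. DESeq2 gave 214 in peri-infarct and 65 in contralateral tissue, and log2(TPM + 1) and log2(TPM + 0.1) each gave 7 in contralateral tissue. With all 18 libraries sharing 1 estimate of spread, the counts were 686 in KO, 502 in WT, 1 in peri-infarct and 1 in contralateral tissue. Without the core library WT_I3 the last 2 were 18 and 6. The cause was not tested.

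Of the differences of 76 genes, 908 of 911 values outside left-out libraries kept sign and call, and 1425 of 1468 with libraries left out. The main fit called none of them, so keeping the call meant staying uncalled. Most of these genes were chosen for a small p, which favours a stable sign. The DESeq2 fits without 1 library entered this tally for Lpl and H2-T24 alone. The size of the difference moved by over 1.5 times for 25 of the 76 outside left-out libraries (25 on TPM, 7 on counts) and for 44 with libraries left out. Spp1 ran from 0.40 to 1.72 on leaving out libraries, and Ciita fell to 0.41 on log2(TPM + 1). Trem2 turned to -0.26 on log2(TPM + 1) and ran from -0.40 to 0.42 on leaving out libraries, and Aldoc ran from -0.42 to 0.014. Isg15, Ifit3 and Cxcl10 were -0.13, -0.11 and -0.23 without the choroid-rich libraries and ran from -0.32 to 0.88, -0.42 to 0.76 and -0.92 to 0.84. Median differences turned on log2(TPM + 1) and log2(TPM + 0.1) for phagocytosis (0.00088 and 0.014), homeostatic microglia (0.039 and 0.043) and lipid uptake (0.014 and 0.038). On leaving out libraries they ran from -0.32 to 0.55 for interferon genes, -0.18 to 0.010 for homeostatic microglia and -0.20 to 0.0072 for lipid uptake, and the contralateral KO against WT median of interferon genes ran from -0.034 to 0.71.

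Same-numbered libraries of the 2 regions deviated together in WT (correlations of 0.410, 0.449 and 0.399, with the own number giving the best match for all 3) and not in KO mice (0.021, 0.037 and -0.103), so the numbers were not taken as pairs. A replicate block by number within genotype gave 0 calls for the difference (724 at an unadjusted p under 0.05), 3678 in KO and 3418 in WT mice. A block on a number shared by the genotypes gave 0 (599), 3501 in KO and 3205 in WT mice. With 3 libraries per group, the 95% interval of the difference reached 0.375 (log2) to either side of the estimate for the median gene.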
